A study of Homo sapiens with 16 samples.

Results

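The tricarboxylic acid (TCA) cycle enzymes described here are 9 transcripts, CS, IDH2, IDH3A, OGDH, DLST, SUCLA2, SUCLG1, FH and MDH2, chosen by name and found by their Entrez identifiers in both deposited tables, among 13559 genes in one and 14024 in the other. They were measured by bulk mRNA sequencing of LN229, an established human glioblastoma cell line. In the untreated experiment, LN229 cells in regular culture were set beside LN229 cells in ischemic culture, a combination of low nutrients and hypoxia that imitates a poorly perfused tumor. In the inhibitor experiment, cells in each culture received DMSO, the vehicle, or VX745, an inhibitor of p38α, or MK25, an inhibitor of MK2, a kinase that p38 activates. Each of the 8 groups had 2 libraries, and the line was given no other allele or transgene in the labels. All groups come from 1 cell line in a dish, so no tumor tissue or second line was measured. The labels give no dose of either inhibitor.

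The TCA cycle runs in the mitochondrial matrix, where it oxidizes acetyl groups from pyruvate, fatty acids and amino acids to carbon dioxide and passes the electrons to the respiratory chain. Citrate synthase joins acetyl-CoA to oxaloacetate, isocitrate and alpha-ketoglutarate are then oxidized in turn, succinyl-CoA is turned into succinate with the making of a nucleoside triphosphate, and fumarase and malate dehydrogenase restore oxaloacetate. Cells short of oxygen are known to send less pyruvate into the cycle, while glutamine carbon can enter at alpha-ketoglutarate, and isocitrate dehydrogenase mutations are a hallmark of some gliomas.

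Libraries held between 20122017 and 37562668 reads, recovered from the deposited values, and each member was read at least 706 times in every library. Levels below are log2 normalized CPM, read counts scaled to the size of the library and by a further factor that differs between libraries. For example, 1 read stood for 0.0407 CPM in the ischemic DMSO replicate 1, of 27239609 reads. In the regular DMSO replicate 2, of 23342980 reads, it stood for 0.0405 CPM. Levels are therefore relative, and small differences between groups depend in part on this factor. It was larger in every ischemic than in every regular library of the same experiment. It was also larger in the ischemic DMSO libraries than in the ischemic VX745 and MK25 libraries. Against plain shares of reads, it therefore raises ischemic over regular levels and lowers inhibitor against DMSO levels in ischemic culture. The part of this in the differences below was not tested. Bulk RNA cannot tell fewer cells that express a gene from less RNA per cell. All 8 glioma or LN229 markers looked up (VIM, NES, CD44, EGFR, SOX2, GFAP, S100B and OLIG2) averaged 1 CPM or more over the libraries of each experiment. The lowest single marker value in the inhibitor experiment was -0.36 log2 CPM. By contrast, 0 of 8 markers of leukocytes, endothelium, epithelium, neurons and oligodendrocytes had a row in either table. The culture labels were matched by 6 of 6 hypoxia-responsive transcripts, which rose in ischemic culture in both the untreated and the DMSO libraries. Among them LDHA, lactate dehydrogenase A, rose by 1.64 and 1.29 on the log2 scale (adjusted p = 2.34e-09 and 2.84e-11). CA9, a carbonic anhydrase, rose from the edge of detection and is given no fold here. Nothing in the labels says that the 2 libraries of a group came from separate cultures, so p-values measure the spread between libraries, which may be technical. The 10 most abundant genes took 5.66% to 6.45% of reads in ischemic and 4.23% to 4.65% in regular libraries, and the part of this in the results was not tested.

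Compared per kilobase of the reference transcript, MDH2 was the most abundant member. Its mean over the 12 inhibitor libraries was 6.99 log2 CPM per kilobase, followed by CS at 6.41, FH at 6.16, SUCLG1 at 5.89, OGDH at 5.17, DLST at 5.05, IDH2 at 4.46, SUCLA2 at 4.09 and IDH3A at 4.07. The same order held in the untreated experiment, from 6.75 for MDH2 to 3.97 for IDH3A. Only the step from MDH2 to CS, the step from SUCLG1 to OGDH and the step from DLST to IDH2 separated neighbours over all 12 inhibitor libraries, because the ranges of the other neighbouring pairs overlapped. FH and IDH3A had the widest ranges, 1.04 and 1.41 on the log2 scale, against 0.33 for CS.

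Most of these transcripts were lower in ischemic culture. IDH3A had the largest fall in each of the 4 comparisons, followed by FH in the untreated and MK25 comparisons and by OGDH in the DMSO and VX745 comparisons. In the untreated experiment, 7 of 9 fell and 1 rose at an adjusted p under 0.05 (limma, Benjamini-Hochberg over all genes), with a median log2 fold change of -0.29 against -0.01 over all genes. Over all genes, 35.2% were called lower and 35.2% higher, so that the call itself is common in these data. A fall of at least 2-fold was called for IDH3A and FH, 2 of 9, against 9.1% of all genes. With DMSO in both cultures, 5 of 9 fell and 2 rose, with a median of -0.16, where 35.2% of all genes were called lower and 34.4% higher. In that comparison 0 of 9 fell by 2-fold or more, against 8.11% of all genes. With VX745 in both cultures, 7 of 9 fell and 1 rose, with a median of -0.39, beside 32.6% of all genes called lower and 34% higher, and with MK25 the counts were again 7 and 1, with a median of -0.29, beside 33.7% and 33.5%. IDH3A was the only member to fall by 2-fold or more with VX745 and with MK25, where 5.21% and 5.34% of all genes did. Under quantile normalization the median fell to -0.44 in the untreated and -0.30 in the DMSO comparison. With DMSO and with MK25, fewer members were called lower when any 1 of the libraries compared was left out.

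**Figure D1:**
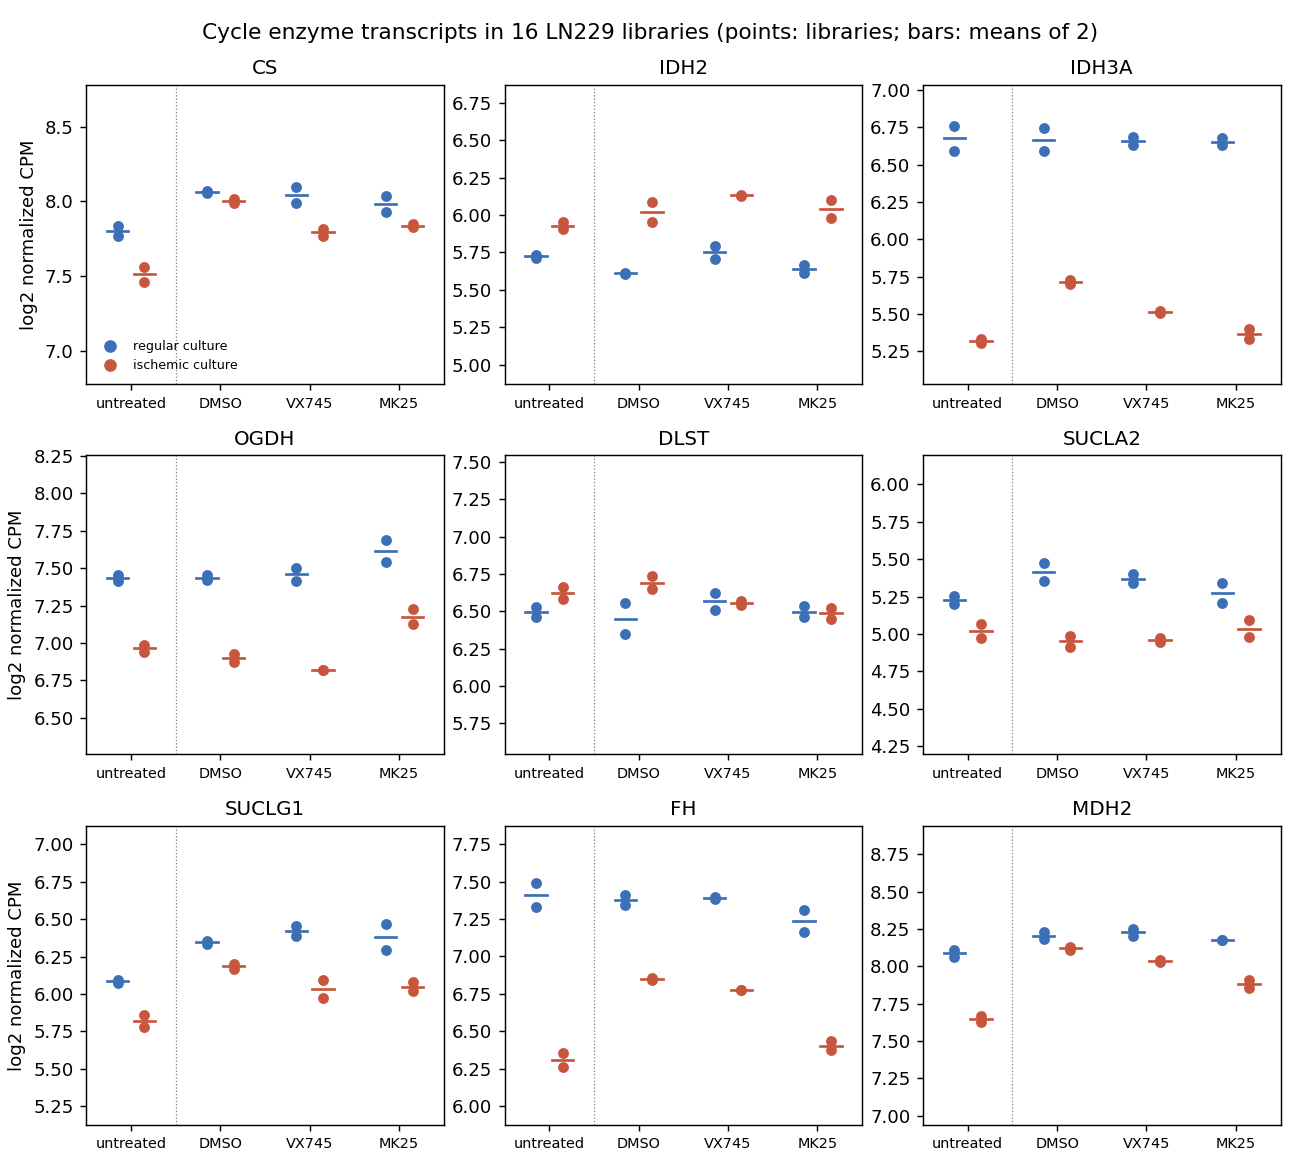
Each panel shows 1 enzyme transcript, with log2 normalized CPM on a vertical axis that spans 2 log2 units, 1 point per library and a bar at the mean of the 2 libraries of a group, regular culture in blue and ischemic culture in red. IDH3A shows the widest gap between cultures in each treatment, FH and OGDH come next, and IDH2 lies higher in ischemic culture. DLST lies slightly higher in ischemic culture in the untreated and DMSO libraries and overlaps with VX745 and with MK25. The dotted line separates the untreated experiment from the inhibitor experiment, which were normalized apart.

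**Figure D2:**
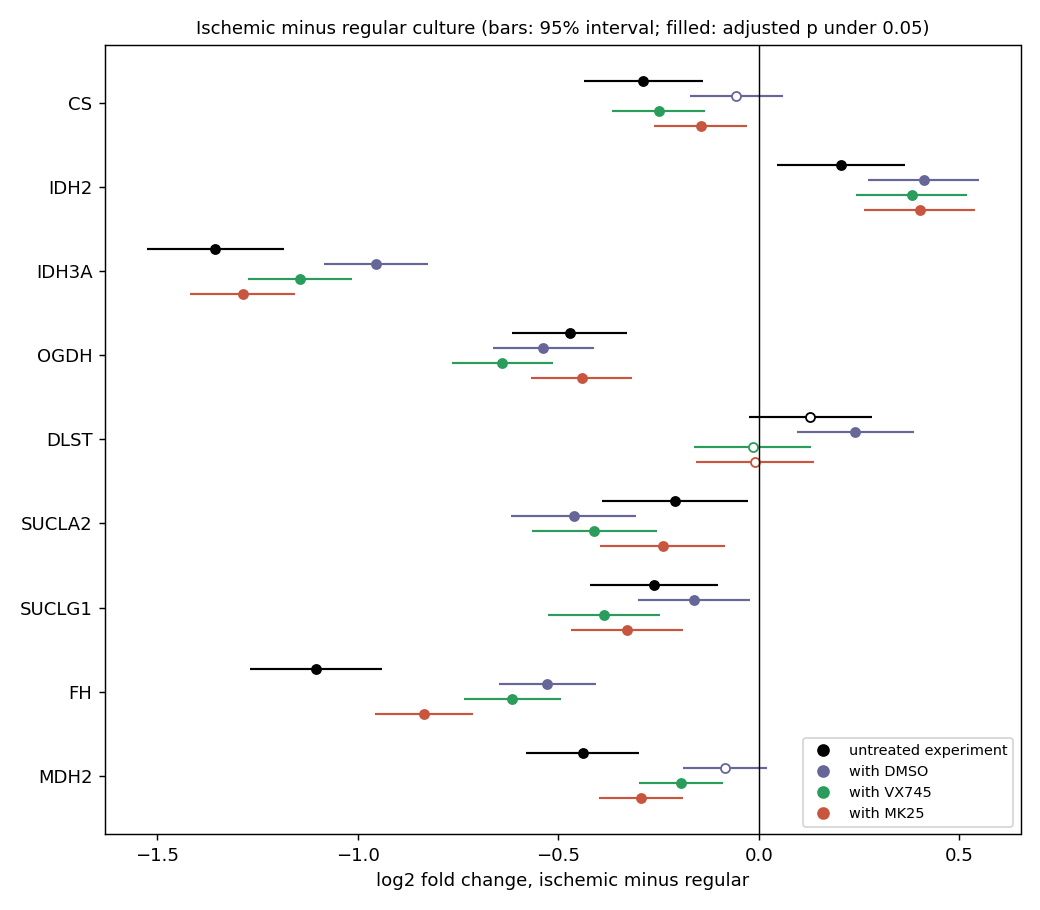
The horizontal axis gives the log2 fold change of ischemic minus regular culture for each enzyme in the 4 comparisons, with 95% intervals from limma and filled points at an adjusted p under 0.05. IDH3A stands furthest to the left at -0.95 to -1.36, IDH2 lies to the right of 0 in all 4, and DLST straddles 0.

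CS encodes citrate synthase, the enzyme that opens the cycle. Its untreated libraries stood at 7.46 and 7.56 in ischemic and 7.77 and 7.83 in regular culture, a fall of 0.29 (SE 0.07, adjusted p = 0.0023). With DMSO the ischemic libraries were at 7.99 and 8.02 beside 8.05 and 8.07, and the difference of -0.06 did not pass the test (95% interval -0.17 to 0.06, adjusted p = 0.374), although under quantile normalization it was -0.26 with an adjusted p of 0.000358. The inhibitor comparisons passed the test for CS, but the change of its culture gap from that with DMSO did not, for VX745 (-0.19, adjusted p = 0.117) or MK25 (-0.09, adjusted p = 0.438). VX745 libraries were at 7.82 and 7.77 in ischemic against 7.99 and 8.09 in regular culture (fall of 0.25, adjusted p = 0.000669). MK25 libraries were at 7.85 and 7.83 against 7.93 and 8.03 (fall of 0.14, adjusted p = 0.0277). That last call for CS was lost without a variance trend (adjusted p = 0.0587) and when only the groups compared were fitted (adjusted p = 0.0607). It was also lost when the ischemic MK25 replicate 1 or 2, or the regular MK25 replicate 2, was left out, at differences of -0.15, -0.14 and -0.09.

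IDH2 is the NADP-dependent isocitrate dehydrogenase of the matrix, and it was the only member called higher in all 4 comparisons of the cultures. In the untreated experiment IDH2 was at 5.90 and 5.95 in ischemic and 5.74 and 5.71 in regular culture, a rise of 0.20 (SE 0.07, adjusted p = 0.0246). With DMSO it was at 5.95 and 6.09 beside 5.61 and 5.61 (rise of 0.41, SE 0.07, adjusted p = 2.41e-05). In the VX745 libraries it stood at 6.13 and 6.14 beside 5.71 and 5.80 (rise of 0.38, adjusted p = 5.96e-05), and in the MK25 libraries at 6.10 and 5.98 beside 5.67 and 5.61 (rise of 0.40, adjusted p = 3.45e-05). No ischemic library of IDH2 lay below a regular library of its own experiment. The untreated call was the weakest of the 4 comparisons. It was lost with median-centred libraries (0.16, adjusted p = 0.0617), under quantile normalization (0.17, adjusted p = 0.0554), without a variance trend (adjusted p = 0.0645), and without the ischemic replicate 2, the regular replicate 1 or the regular replicate 2 (adjusted p of 0.086, 0.0779 and 0.107).

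IDH3A encodes the catalytic alpha subunit of the NAD-dependent isocitrate dehydrogenase, the enzyme that carries the cycle's own oxidation of isocitrate, and it fell more than any other member in every comparison of the cultures. Untreated libraries were at 5.31 and 5.33 in ischemic and 6.76 and 6.59 in regular culture, a 2.56-fold fall (-1.36 on the log2 scale, SE 0.08, adjusted p = 1.68e-08). With DMSO the libraries were at 5.72 and 5.70 beside 6.74 and 6.59, a 1.94-fold fall (-0.95, SE 0.06, adjusted p = 3.2e-10). The regular libraries of IDH3A differed little across the experiment, while the ischemic ones were lower with either inhibitor. The change of the IDH3A culture gap from that with DMSO did not pass the test for VX745 (-0.19, adjusted p = 0.171). It passed for MK25 (-0.33, adjusted p = 0.0102), a call that was lost without 1 of the libraries, as given below. VX745 gave 5.51 and 5.52 against 6.68 and 6.63 (-1.14, adjusted p = 3.53e-11), and MK25 gave 5.40 and 5.33 against 6.67 and 6.63 (-1.29, adjusted p = 7.97e-12). The highest ischemic library of the inhibitor experiment, 5.72, was below the lowest regular one, 6.59. So IDH2 and IDH3A, which oxidize the same substrate with different cofactors, moved in opposite directions.

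The sequences just upstream of the RefSeq starts of IDH3A and FH are shown because these 2 members had the largest falls in the untreated and MK25 comparisons, while with DMSO and VX745 OGDH, which has no entry in the promoter table, fell slightly more than FH. They are taken from RefSeq (GRCh38.p14), written 5′ to 3′ on the gene's strand, and the longer stretches hold no exon base of a GENCODE transcript of that strand. The IDH3A stretch covers chr15:78149112-78149325 on the plus strand and lies within an intron of an IDH3A transcript that GENCODE starts further upstream. The FH stretch covers chr1:241519800-241520005 on the minus strand, outside annotated genes, and the short FH site covers chr1:241519765-241519777, close to the start and within the first exon of alternative FH transcripts. Capitals mark matches to the 6 motifs searched, and here all of them are the core GCGTG.
IDH3A: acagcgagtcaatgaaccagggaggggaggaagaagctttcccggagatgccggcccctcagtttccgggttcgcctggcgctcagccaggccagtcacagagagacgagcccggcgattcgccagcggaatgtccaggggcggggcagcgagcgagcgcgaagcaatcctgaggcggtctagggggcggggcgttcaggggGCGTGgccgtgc
FH upstream: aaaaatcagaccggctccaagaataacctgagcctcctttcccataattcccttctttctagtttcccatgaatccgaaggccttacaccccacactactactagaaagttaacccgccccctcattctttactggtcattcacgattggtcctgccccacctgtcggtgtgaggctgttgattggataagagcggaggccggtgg
FH site: GCGTGgagGCGTG

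The IDH3A stretch is rich in G and C, at 68.2%, against 50.5% for the FH stretch. Motifs were searched on both strands from 250 bases before to 50 bases after the RefSeq start in the 8 members with an entry, all but OGDH, and in all 35116 promoters of the table. The hypoxia response core in its form ACGTG was in 0 of 8 members and 21.4% of all promoters. In its form GCGTG it was in 4 of 8 members (IDH2, IDH3A, SUCLG1 and FH) and 36.5% of all promoters. The motif of NRF1, GCGCANGCG, was in 2 of 8 (IDH3A and SUCLA2) and 7.52% of all promoters, and that of estrogen related receptors, AAGGTCA, in 1 of 8 (SUCLA2) and 3.92%. The E-box CACGTG, which holds ACGTG within it, and the amino acid response motif TGATGNAA were in 0 of 8, beside 7.26% and 3.62% of all promoters. The table's start for IDH2 lies inside the annotated gene, so its window is not upstream of the whole gene. These matches are letters in a window, and no binding was measured.

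OGDH and DLST encode the alpha-ketoglutarate dehydrogenase complex's first component, which decarboxylates alpha-ketoglutarate, and its second component, the lipoate-bearing succinyltransferase core. OGDH fell in all 4 comparisons of the cultures. It stood at 6.94 and 6.99 in ischemic against 7.42 and 7.46 in regular untreated libraries (-0.47, SE 0.07, adjusted p = 3.79e-05), and at 6.93 and 6.87 against 7.45 and 7.42 with DMSO (-0.54, SE 0.06, adjusted p = 3.91e-07). With VX745 the OGDH libraries were at 6.82 and 6.82 against 7.42 and 7.50 (-0.64, adjusted p = 4.94e-08), and with MK25 at 7.23 and 7.13 against 7.54 and 7.69 (-0.44, adjusted p = 4.57e-06). DLST passed the test in 1 of the 4 comparisons, as a rise. The untreated DLST libraries were at 6.58 and 6.66 in ischemic and 6.46 and 6.53 in regular culture, a difference of 0.13 that did not pass the test (95% interval -0.02 to 0.28, adjusted p = 0.12). With DMSO, DLST rose, from 6.55 and 6.35 to 6.74 and 6.65 (0.24, SE 0.07, adjusted p = 0.00508). That rise rested on single libraries, since it was 0.14 (adjusted p = 0.107) without the regular DMSO replicate 2 and 0.20 (adjusted p = 0.0597) without the ischemic DMSO replicate 1. The cultures overlapped for DLST with VX745, at 6.57 and 6.54 beside 6.51 and 6.62, and with MK25, at 6.52 and 6.45 beside 6.53 and 6.46, with differences of -0.01 in both (95% intervals -0.16 to 0.13 and -0.16 to 0.14).

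SUCLG1 encodes the alpha subunit shared by both succinyl-CoA synthetases, and SUCLA2 the beta subunit of the form that makes ATP. SUCLG1 was lower in ischemic culture in all 4 comparisons. It was at 5.78 and 5.86 beside 6.10 and 6.07 in untreated libraries (-0.26, SE 0.07, adjusted p = 0.00666) and at 6.20 and 6.17 beside 6.34 and 6.36 with DMSO (-0.16, SE 0.07, adjusted p = 0.0387). With VX745, SUCLG1 stood at 5.97 and 6.10 beside 6.45 and 6.39 (-0.39, adjusted p = 5.84e-05), and with MK25 at 6.08 and 6.02 beside 6.47 and 6.29 (-0.33, adjusted p = 0.000289). The DMSO call for SUCLG1 was the least stable, with an adjusted p of 0.0765 to 0.151 without any 1 of its 4 libraries and 0.0792 without a variance trend, and the untreated call was lost without the regular replicate 1 (adjusted p = 0.0521).

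SUCLA2, the least abundant member as log2 CPM, was also lower in all 4 comparisons. Untreated libraries held 4.97 and 5.06 in ischemic and 5.26 and 5.20 in regular culture (-0.21, SE 0.08, adjusted p = 0.0396), a call that was lost without the ischemic replicate 1, the regular replicate 1 or the regular replicate 2 (adjusted p of 0.146, 0.187 and 0.0919) and without a variance trend (adjusted p = 0.0749). With DMSO it was at 4.91 and 4.99 beside 5.47 and 5.35 (-0.46, SE 0.07, adjusted p = 2.43e-05). In the VX745 libraries SUCLA2 was at 4.97 and 4.95 beside 5.40 and 5.34 (-0.41, adjusted p = 9.48e-05). In the MK25 libraries it was at 4.98 and 5.09 beside 5.34 and 5.21 (-0.24, adjusted p = 0.00807), and this call was lost without the ischemic replicate 1 or the regular replicate 1 (adjusted p of 0.0844 and 0.0953).

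FH, fumarase, hydrates fumarate to malate, and loss of the enzyme is known to let fumarate accumulate in hereditary tumors. Its fall was the second largest in the untreated experiment, with ischemic libraries at 6.26 and 6.35 and regular libraries at 7.49 and 7.33, a 2.15-fold difference (-1.10, SE 0.08, adjusted p = 7.46e-08). With DMSO, FH stood at 6.84 and 6.86 beside 7.41 and 7.34, a 1.44-fold fall (-0.53, SE 0.06, adjusted p = 3.05e-07). The 2 tables were normalized separately, so the gap between -1.10 and -0.53 was not tested. VX745 libraries were at 6.78 and 6.78 beside 7.40 and 7.38 (-0.61, adjusted p = 4.97e-08). MK25 libraries were at 6.43 and 6.37 beside 7.31 and 7.16 (-0.84, adjusted p = 9.68e-10).

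MDH2, the mitochondrial malate dehydrogenase that closes the cycle, showed the same order of comparisons as FH at a smaller size. The untreated MDH2 libraries were at 7.63 and 7.67 in ischemic and 8.11 and 8.06 in regular culture (-0.44, SE 0.06, adjusted p = 5.92e-05). With DMSO the libraries were close, at 8.11 and 8.13 beside 8.23 and 8.18, and the difference of -0.08 did not pass the test (95% interval -0.19 to 0.02, adjusted p = 0.14), although under quantile normalization it was -0.30 with an adjusted p of 2.55e-05. MDH2 fell with VX745, from 8.20 and 8.25 to 8.04 and 8.03 (-0.19, adjusted p = 0.00225), and with MK25, from 8.18 and 8.17 to 7.91 and 7.85 (-0.29, adjusted p = 5.3e-05).

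When the 6 ischemic libraries of the inhibitor experiment were set against its 6 regular libraries, irrespective of compound, 6 of 9 members (IDH3A, OGDH, SUCLA2, SUCLG1, FH and MDH2) had all ischemic libraries below all regular ones, against 25.6% of all genes. IDH2 alone had all of them above, against 25.8% of all genes. CS and DLST overlapped. The separation was widest for IDH3A, whose ischemic libraries ran from 5.33 to 5.72 around a median of 5.51 and whose regular libraries ran from 6.59 to 6.74 around 6.65. For MDH2 it was narrow, with an ischemic maximum of 8.13 and a regular minimum of 8.17.

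Because partners in 1 enzyme did not move alike, ratios of normalized CPM per kilobase were formed within each library. The NAD-dependent isocitrate dehydrogenase needs IDH3A, IDH3B and IDH3G. Over the 6 ischemic libraries of the inhibitor experiment the IDH3A to IDH3G ratio had a median of 0.231 (0.204 to 0.252), and over the 6 regular libraries 0.554 (0.534 to 0.591). The IDH3A to IDH3B ratio had a median of 0.114 (0.102 to 0.117) against 0.191 (0.182 to 0.201). Thus IDH3A was lower relative to both of its partner transcripts in every ischemic library. IDH3A stood above IDH2 per kilobase in regular culture, with a median ratio of 1.30 (1.16 to 1.42), and below it in ischemic culture, with 0.424 (0.400 to 0.556). The untreated experiment gave medians of 1.26 and 0.427 for the same pair.

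The OGDH to DLST ratio was 1.30 (1.23 to 1.58) in regular and 0.806 (0.764 to 1.09) in ischemic libraries of the inhibitor experiment, with the 2 ischemic MK25 libraries at the upper end. FH to MDH2 was 0.671 (0.600 to 0.693) in regular and 0.501 (0.434 to 0.509) in ischemic libraries. For SUCLA2 against SUCLG2, the beta subunit of the form that makes GTP, the experiments went opposite ways, with medians of 0.925 in regular and 0.745 in ischemic inhibitor libraries and of 0.767 and 0.855 in untreated ones. These ratios are descriptions of transcripts and carry no test.

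**Figure D3:**
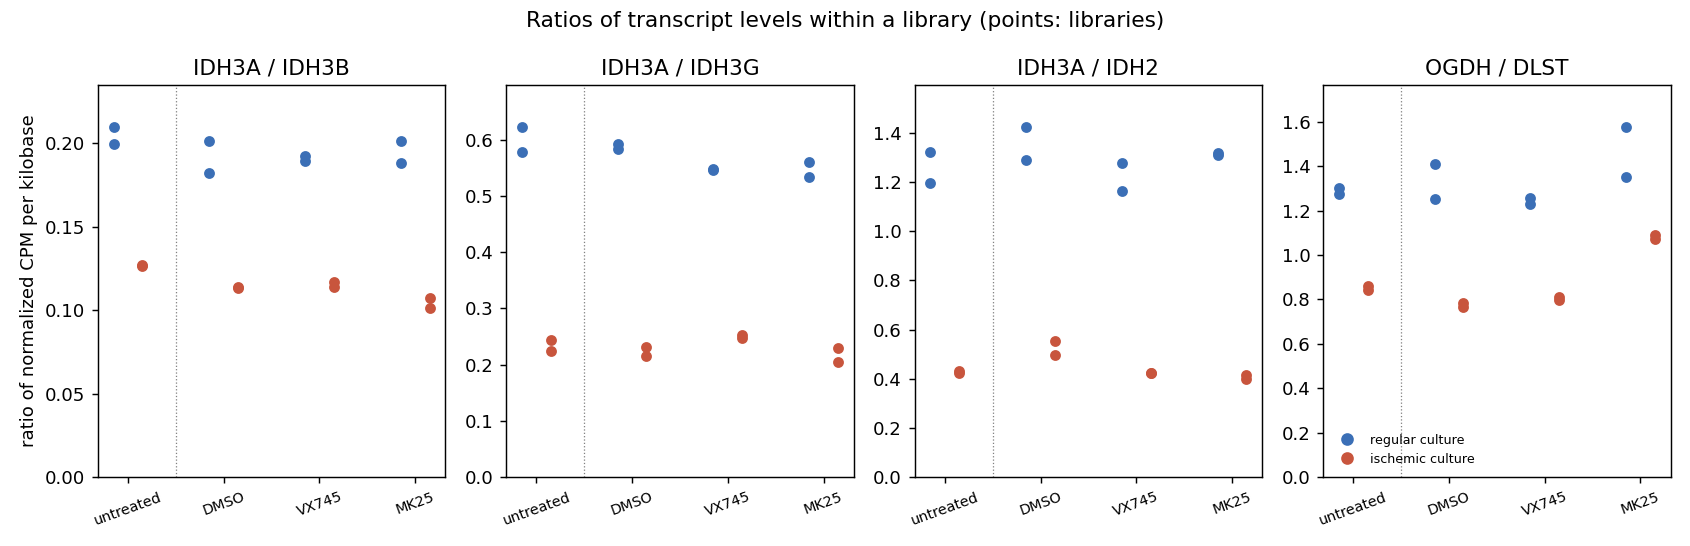
The vertical axes, which start at 0, give the ratio of normalized CPM per kilobase of 2 transcripts within a library, with 1 point per library by treatment, blue for regular and red for ischemic culture. IDH3A lies lower against IDH3B, IDH3G and IDH2 in all ischemic libraries, and OGDH against DLST is higher in the ischemic MK25 libraries than in the other ischemic ones.

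The p38α inhibitor VX745 was compared with DMSO in ischemic culture. Against the ischemic DMSO libraries, 0 of 9 rose and 2 of 9 fell, where 14% of all genes were called higher and 14.9% lower, so the members' share is near that of all genes. Fitting only the groups compared called 4 of 9 lower. CS fell by 0.21 (SE 0.05, adjusted p = 0.00784) and IDH3A fell by 0.20 (SE 0.06, adjusted p = 0.0228). Both calls were lost under quantile normalization, with adjusted p-values of 0.135 for CS and 0.0524 for IDH3A. Without a variance trend IDH3A missed the threshold as well (adjusted p = 0.0523). The IDH3A call was also lost without any 1 of the 4 libraries compared (adjusted p of 0.0724 to 0.119), and the CS call without the ischemic DMSO replicate 2 (0.0606) or the ischemic VX745 replicate 2 (0.0898). The other 7 differences ran from -0.15 for SUCLG1 to 0.11 for IDH2. None of the 9 changed by 1.5-fold.

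The MK2 inhibitor MK25 changed 6 of 9 members in ischemic culture, measured against the same 2 DMSO libraries. OGDH rose, from 6.93 and 6.87 to 7.23 and 7.13 (0.28, SE 0.06, adjusted p = 0.00143), and 5 of 9 fell, where 19.8% of all genes were called higher and 22% lower. FH fell by 0.45 (SE 0.06, adjusted p = 1.33e-05), which is 1.36-fold, with MK25 libraries at 6.43 and 6.37 below the DMSO libraries at 6.84 and 6.86. IDH3A fell by 0.35 (SE 0.06, adjusted p = 0.000259), and MDH2 fell by 0.24 (SE 0.05, adjusted p = 0.001). Smaller falls were called for DLST, by 0.20 (adjusted p = 0.0254), and CS, by 0.17 (adjusted p = 0.0204). These last 3 calls were lost under quantile normalization (adjusted p of 0.0586 for MDH2, 0.207 for DLST and 0.54 for CS). Without a variance trend the DLST and CS calls were lost too (adjusted p of 0.0795 and 0.0539). The DLST call was also lost without the ischemic DMSO replicate 1 or the ischemic MK25 replicate 2 (0.18 and 0.147), and the CS call without any 1 of the 4 libraries (0.0645 to 0.113). IDH2, SUCLA2 and SUCLG1 differed by 0.02, 0.09 and -0.14 and did not pass the test.

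In regular culture the inhibitors left no member past the threshold. For VX745, limma called 0 of 9 in either direction, 1 of 9 had an unadjusted p under 0.05, and voom on the recovered reads called 0. Over all genes, 0.178% were called higher and 0.157% lower. The 9 differences lay between -0.04 for SUCLA2 and 0.14 for IDH2. For MK25, limma called 0 of 9, 2 of 9 had an unadjusted p under 0.05, and voom called 0, beside 7% of all genes called higher and 5.21% lower. OGDH came nearest, at 7.54 and 7.69 beside 7.45 and 7.42 with DMSO, a difference of 0.18 (95% interval 0.05 to 0.31, adjusted p = 0.0584). FH stood at 7.31 and 7.16 beside 7.41 and 7.34 (-0.14, 95% interval -0.26 to -0.02, adjusted p = 0.126). These intervals do not show that the inhibitors were without effect.

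**Figure D4:**
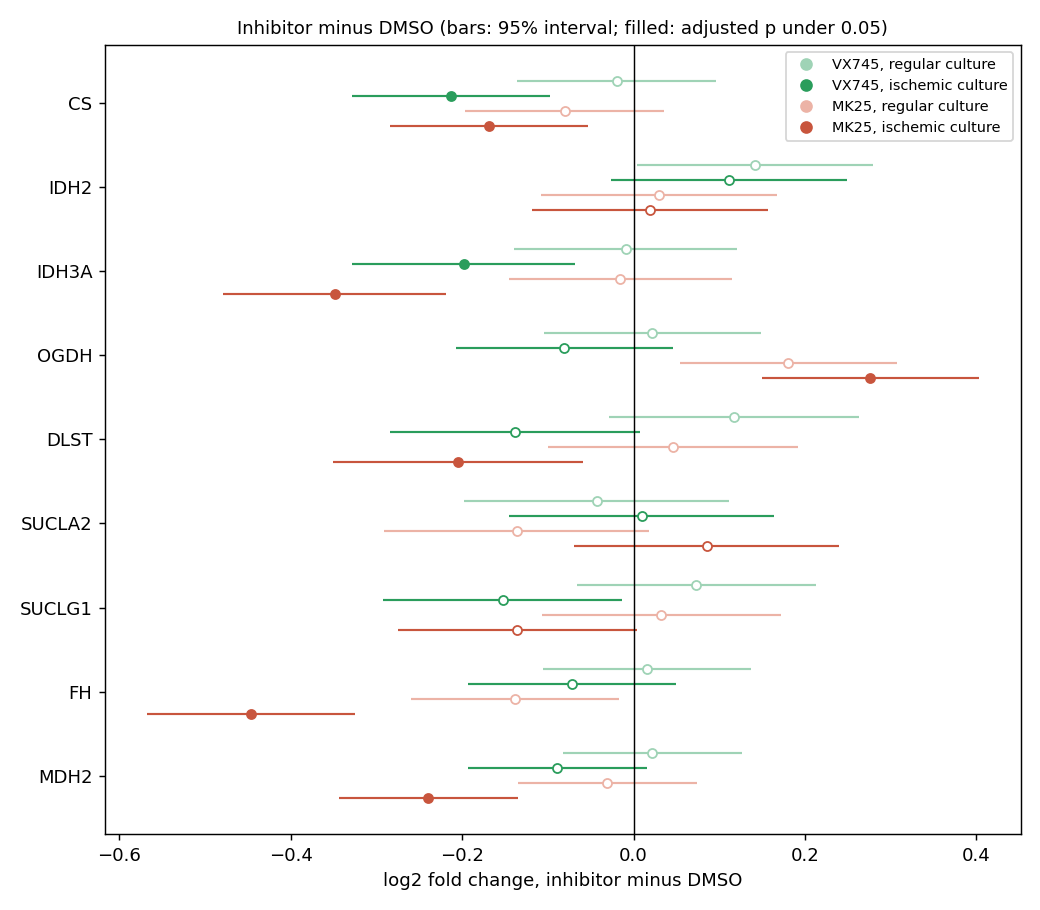
The horizontal axis gives the log2 fold change of inhibitor minus DMSO for each enzyme, with 95% intervals from limma, pale for regular and dark for ischemic culture, and filled points at an adjusted p under 0.05. Filled points occur in ischemic culture, with FH at -0.45 and OGDH at 0.28 for MK25 as the outermost.

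Whether an inhibitor acted differently in the 2 cultures was tested as an interaction. For VX745, 0 of 9 passed in limma, 4 of 9 had an unadjusted p under 0.05 (CS, IDH3A, DLST and SUCLG1, named after their values were seen), and voom called 0, beside 11.8% of all genes called in either direction. For MK25, 3 of 9 passed, beside 24.4% of all genes. The effect of MK25 was lower in ischemic than in regular culture by 0.33 for IDH3A (SE 0.09, adjusted p = 0.0102), by 0.31 for FH (SE 0.08, adjusted p = 0.0109) and by 0.21 for MDH2 (SE 0.07, adjusted p = 0.038). Under quantile normalization the FH and MDH2 calls were lost (adjusted p of 0.0597 and 0.321). Without a variance trend, or with only the groups compared fitted, the MDH2 call was lost too (adjusted p = 0.0672 in both). The MDH2 call was also lost without the ischemic DMSO replicate 1 or 2, the ischemic MK25 replicate 2, the regular DMSO replicate 2, or the regular MK25 replicate 1 or 2 (adjusted p of 0.0608 to 0.123). IDH3A missed the threshold without the regular DMSO replicate 2 (-0.26, adjusted p = 0.0514), and FH without the regular MK25 replicate 1 (-0.23, adjusted p = 0.0571). For OGDH the interaction was 0.10 (95% interval -0.08 to 0.27, adjusted p = 0.442), so a difference between cultures in its response to MK25 was not shown.

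MK25 and VX745 were also compared directly, at doses the labels do not give. In ischemic culture 3 of 9 differed, beside 18.4% of all genes. OGDH was higher with MK25 than with VX745 by 0.36 (SE 0.06, adjusted p = 0.000374), and FH was lower by 0.37 on the log2 scale, a log2 fold change of -0.37 (SE 0.06, adjusted p = 0.000164). The ischemic OGDH libraries with MK25, 7.23 and 7.13, were both above those with VX745, 6.82 and 6.82. MDH2 was also lower with MK25 (-0.15, SE 0.05, adjusted p = 0.0426), a call lost without any 1 of the 4 libraries (-0.18 to -0.12). That call was lost too with median-centred libraries, under quantile normalization and without a variance trend (adjusted p of 0.0645, 0.0576 and 0.0775). In regular culture limma called 0 of 9 between the compounds, 2 of 9 had an unadjusted p under 0.05 and voom called 0, beside 5.39% of all genes.

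Another 9 mitochondrial subunits of the cycle's enzymes, listed beside the members, held no fall of 2-fold or more. Such falls were called for 9.1% of all genes in the untreated and 8.11% in the DMSO comparison. In the untreated experiment 5 of 9 fell and 0 rose, and with DMSO 4 of 9 fell and 1 rose, with medians of -0.35 and -0.20. Over all genes 35.2% were called lower in each comparison, and 35.2% and 34.4% higher. IDH3B fell by 0.66 and 0.20 on the log2 scale in the 2 comparisons (adjusted p = 2.5e-06 and 0.00723). IDH3G differed by 0.00 in the untreated and rose by 0.44 in the DMSO comparison (adjusted p = 0.971 and 3.14e-05). DLD, the third component of alpha-ketoglutarate dehydrogenase and a part of other dehydrogenase complexes, fell by 0.35 and 0.33 (adjusted p = 0.000592 and 4.83e-05).

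Of the succinate dehydrogenase subunits, SDHB, which holds the iron-sulfur clusters, fell by 0.48 and 0.26 (adjusted p = 8.47e-05 and 0.00585), and SDHC, a membrane anchor, fell by 0.50 and 0.27 (adjusted p = 4.08e-05 and 0.00233). The catalytic SDHA differed by 0.01 and 0.08 and the anchor SDHD by -0.16 and -0.28, and neither passed the test. SUCLG2 fell by 0.36 in the untreated experiment (adjusted p = 0.00146) and differed by 0.05 with DMSO. MRPS36, which tethers components of the alpha-ketoglutarate dehydrogenase complex, varied too much between libraries to resolve, at -0.31 and 0.16 with SEs of 0.29 and 0.36. The assembly factors of succinate dehydrogenase numbered 4, of which 3 fell in the untreated and 1 in the DMSO comparison, beside 35.2% of all genes in each. SDHAF4 was at -0.95 and -0.48 and SDHAF2 at -0.17 and 0.16. The SDHAF4 values are uncertain in size, since it averaged only 0.87 and 0.95 log2 CPM in the ischemic untreated and DMSO libraries.

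Cytosolic enzymes and other paralogs (ACO1, IDH1, MDH1, OGDHL and DHTKD1) were looked at separately. Of 5, 1 rose and 3 fell in the untreated and 0 rose and 3 fell in the DMSO comparison. Over all genes 35.2% fell in each, and 35.2% and 34.4% rose. IDH1, the cytosolic NADP-dependent isocitrate dehydrogenase, rose by 0.55 in the untreated experiment (adjusted p = 2.91e-05) and differed by 0.05 with DMSO (adjusted p = 0.457). MK25 raised IDH1 in both cultures, by 0.73 in ischemic (SE 0.06, adjusted p = 5.99e-08) and by 0.84 in regular culture (SE 0.06, adjusted p = 1.24e-08). The cytosolic malate dehydrogenase MDH1 fell by 0.33 and 0.24 (adjusted p = 0.00129 and 0.000324). ACO1, the cytosolic aconitase that also serves as an iron regulatory protein, fell by 0.37 and 0.24 (adjusted p = 0.00126 and 0.00263). OGDHL, an OGDH paralog, was read 16 to 81 times per library and its differences of 0.43 and 0.44 did not pass the test.

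**Figure D5:**
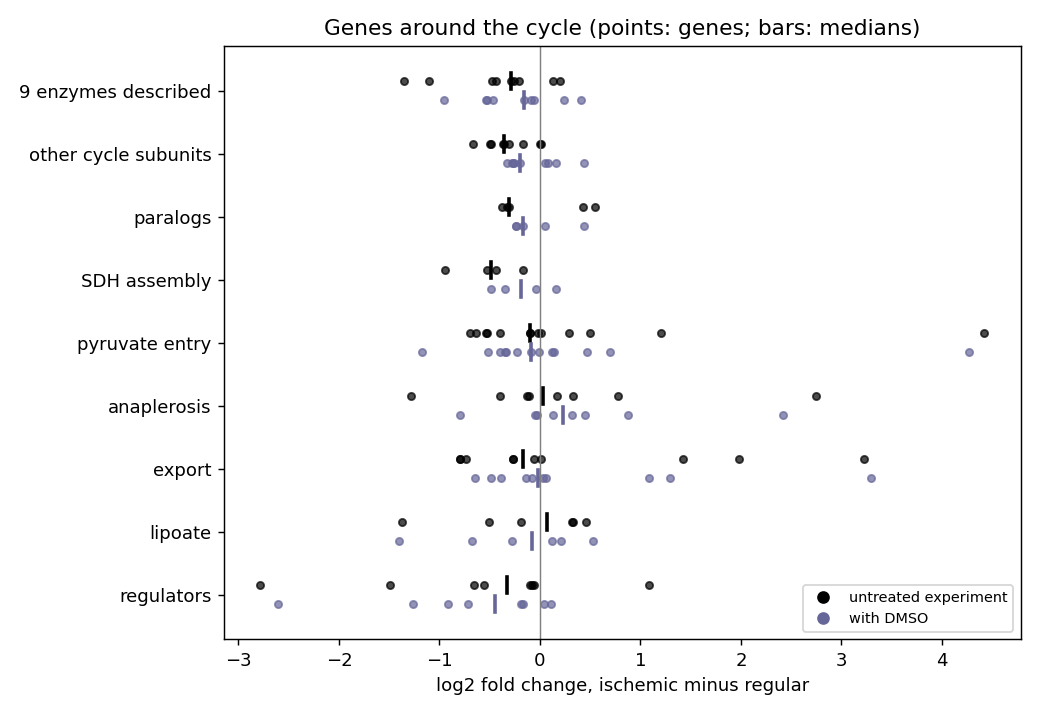
Each row is a list of genes, with the log2 fold change of ischemic minus regular culture on the horizontal axis, 1 point per gene and a bar at the list's median, black for the untreated and blue-grey for the DMSO comparison. The points of the cycle lists lie between -1.36 and 0.55, while single genes of the entry and exit lists, such as PDK1 at 4.42 and PCK2 at 3.22, lie far to the right.

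Transcripts at the entries and exits of the cycle included far larger changes than any member. The counts in the lists are to be read against all genes, of which 35.2% rose and 35.2% fell in the untreated and 34.4% rose and 35.2% fell in the DMSO comparison. For pyruvate entry, 4 of 13 rose and 5 of 13 fell in both comparisons, close to those shares. PDK1, a kinase that switches off pyruvate dehydrogenase, stood at 7.84 and 8.04 in ischemic against 3.57 and 3.46 in regular untreated libraries, a rise of 4.42 (SE 0.09, adjusted p = 1.05e-12), and rose by 4.27 with DMSO. PDP2, a phosphatase that switches it back on, fell by 0.69 and 1.17 (adjusted p = 0.000118 and 3.48e-09). MK25 in regular culture raised PDK1 by 1.86 (SE 0.08, adjusted p = 2.83e-11) and called 6 of 6 hypoxia-responsive transcripts higher. Of the 9 cycle members 0 passed, beside 7% of all genes called higher and 5.21% lower, and 1 was called higher under quantile normalization and 1 higher and 1 lower without the regular MK25 replicate 1.

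Of 8 anaplerotic genes, which feed carbon into the cycle, 3 rose and 1 fell in the untreated and 4 rose and 1 fell in the DMSO comparison. GPT2, the mitochondrial alanine aminotransferase, rose by 2.75 and 2.42 (adjusted p = 1e-11 and 7.24e-17), and GOT2, the mitochondrial aspartate aminotransferase, fell by 1.28 and 0.80 (adjusted p = 1.55e-08 and 1.7e-09). Of 10 measured genes of metabolite export and malate use, 3 rose in each comparison and 5 and 4 fell. PCK2, the mitochondrial phosphoenolpyruvate carboxykinase, rose by 3.22 and 3.29 (adjusted p = 1e-11 and 2.94e-17). SLC25A12, an aspartate-glutamate carrier, fell by 0.80 and 0.65 (adjusted p = 1.02e-05 and 5.6e-07).

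Lipoate is the cofactor that DLST carries. Of 6 lipoate synthesis genes, 2 rose and 2 fell in the untreated and 1 rose and 2 fell in the DMSO comparison. LIAS, lipoic acid synthase, rose by 0.45 and 0.53 (adjusted p = 0.0064 and 0.000421), while LIPT2, a lipoyl transferase, fell by 1.37 and 1.41 (adjusted p = 0.000187 and 1.02e-05). The size of the LIPT2 falls is uncertain, since it averaged only 0.69 and 0.89 log2 CPM in the ischemic untreated and DMSO libraries. Of 8 regulators of mitochondrial genes, 1 rose and 4 fell in the untreated and 0 rose and 5 fell in the DMSO comparison. PPARGC1B, a coactivator of mitochondrial gene expression, fell by 2.78 and 2.60 (adjusted p = 2.92e-07 and 8.31e-09), and ESRRA, an orphan nuclear receptor, differed by -0.08 and 0.11. In ischemic culture PPARGC1B was higher with VX745 by 0.84 (adjusted p = 0.00786) and with MK25 by 1.28 (adjusted p = 0.00017) than with the shared DMSO libraries. PPARGC1B averaged only -0.26 log2 CPM in the ischemic untreated libraries and 0.25, with an SD of 0.52, in the ischemic DMSO libraries. The sizes of its falls and rises are therefore uncertain.

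Some of these transcripts share sequence with copies elsewhere in the genome, such as pseudogenes, and how the counting treated such reads is not given in the sources used here. Of the 31-base words of the reference transcript, 51.7% recur elsewhere on the chromosomes for CS, 25.5% for DLST, 24.1% for SUCLA2 and 11.9% for FH. The share is 9.74% for IDH2, 6.27% for IDH3A, 1.53% for SUCLG1, 0.312% for OGDH and 0% for MDH2. The values of CS, DLST and SUCLA2 are therefore given as uncertain, and those of OGDH, SUCLG1 and MDH2 are the least exposed to copies among the members. Among the other subunits SDHC, SDHD and SDHA recur most, at 75.3%, 66.6% and 42.3%.

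In the genome (GRCh38.p14, RefSeq) the members lie apart from each other, save for IDH2 and IDH3A on chromosome 15 and OGDH and MDH2 on chromosome 7. CS spans chr12:56271699-56300330, IDH2 chr15:90083045-90102468, IDH3A chr15:78149362-78171945, OGDH chr7:44606627-44709066 and DLST chr14:74881916-74903743. SUCLA2 spans chr13:47942656-48001273, SUCLG1 chr2:84423528-84459280, FH chr1:241497603-241519755 and MDH2 chr7:76048106-76067508.

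For each member the gene outside the lists used here with the most similar pattern was found by the root mean square difference of mean-centred log2 values over the 12 inhibitor libraries. IDH3A was nearest to TUBA1B (0.035), FH to PSMD2 (0.042), MDH2 to RBBP7 (0.025), SUCLG1 to TMEM11 (0.034) and CS to DDB1 (0.039). DLST was nearest to MSL3 (0.044), SUCLA2 to MESD (0.052), IDH2 to GHDC (0.056) and OGDH to TEAD2 (0.071). Over all genes the median distance to a member was 0.29 to 0.61. The libraries are shared by every gene, so the distances describe these 12 libraries alone.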

How the data were processed

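The authors sequenced LN229 mRNA (SMART-Seq and Nextera XT libraries, NovaSeq, paired ends), trimmed reads and aligned them to GRCh38 with HISAT2 in Galaxy, and named edgeR for differential expression. The counting program is not given in the sources used here. The deposited values are log2 normalized CPM with a small offset, in 1 table per experiment, keyed by Entrez identifiers, of which 99.4% and 99.3% were given symbols. Whole reads came back from 100% of values within a tolerance of 0.05 reads. Limma 3.58.1 (R 4.3.3) was fitted to the deposited log2 values with 1 mean per group and a variance trend, separately over the 4 untreated and the 12 inhibitor libraries, after a check on simulated data. With a spread that was assumed, the check recovered 25% and 26% of changes of 0.5 log2 in the untreated and DMSO comparisons of cultures. It recovered 97.5% and 98% of changes of 1 log2. The spread was not taken from these data, and 200 genes were changed, far fewer than were called here. The recovered shares therefore do not measure the sensitivity of the tests above, which can still miss small changes. P-values are two-sided and adjusted by Benjamini-Hochberg over all genes, with calls under 0.05, and fold limits of 2 for culture and 1.5 for inhibitors where stated. A total of 12 comparisons were made. Comparisons with an inhibitor in 1 culture share that culture's 2 DMSO libraries. Motifs, RefSeq promoters and 31-base words of MANE transcripts were searched in GRCh38. The named genes are the 9 members, the listed cycle subunits, 5 paralogs and, in each further list, the highest and lowest gene with DMSO. A further listed gene is not reported here. Members and lists were chosen with earlier results of these data known. Alternatives were voom on the recovered reads with the deposited scaling, other scalings, filters and fits, a replicate block, and leaving out each library.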

Additional observations from a re-analysis of the deposited data

Results flagged for a closer look

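The effect of MK25 against DMSO differed between ischemic and regular culture for 3 members, by a test of the difference itself, a share of 3 of 9 beside 24.4% of all genes. It was lower in ischemic culture for IDH3A (-0.33 on the log2 scale, adjusted p = 0.0102), FH (-0.31, adjusted p = 0.0109) and MDH2 (-0.21, adjusted p = 0.038, limma). Under quantile normalization 1 of the 3 calls was kept, and each was lost without at least 1 single library (IDH3A without the regular DMSO replicate 2, FH without the regular MK25 replicate 1, MDH2 without any 1 of 6 libraries). In regular culture the MK25 effect was -0.02 for IDH3A, -0.14 for FH and -0.03 for MDH2, and in ischemic culture it was -0.35, -0.45 and -0.24. In regular culture MK25 also raised 6 of 6 hypoxia-responsive transcripts, and the part of this in the differences was not tested.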

How the results depend on the processing

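The single values followed here were all 9 members in the comparisons of cultures but, in the inhibitor and interaction comparisons, only members already called, so gains there show in the counts below and not among the single values. Of 603 such values under alternatives, 534 kept their direction and side of the threshold, 64 lost the threshold, 2 gained it and 3 changed sign. With the replicate block and the filter on mean CPM the fold changes could not move, only their p-values. Voom reused the deposited scaling of the libraries, so it does not test that scaling. The 534 therefore includes fits that stay close to the main one by design. The sign changes were all in DLST, which was not called, with -0.071 to 0.042 for VX745 and -0.047 to 0.028 for MK25 over the fits that left out 1 library. The cause was not tested for the values below.

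Quantile normalization took the members called higher in the untreated comparison of cultures to 0 and its median to -0.44, and the DMSO median to -0.30. In ischemic culture it left 0 members lower with VX745 (median -0.0086) and 2 with MK25 (median -0.081). It left 1 lower in the MK25 interaction, 1 lower with MK25 than with VX745, and called 1 higher with MK25 in regular culture. Median-centred libraries gave 0 higher in the untreated comparison, a VX745 median between cultures of -0.42, and 1 lower with MK25 than with VX745 in ischemic culture. Without a variance trend 0 were higher in the untreated comparison, and in ischemic culture 1 was lower with VX745, 3 with MK25 and 1 with MK25 than with VX745. Fitting only the groups compared called 4 lower with VX745 in ischemic culture. With a fold of at least 2, 2 of 9 were lower in the untreated comparison of cultures, 0 with DMSO, 1 with VX745 and 1 with MK25, and 0 were higher in any. With a fold of at least 1.5, 0 changed with either inhibitor in ischemic culture.

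Leaving out 1 library at a time leaves 1 library in a group. The medians between cultures then ranged from -0.34 to -0.24 in the untreated and from -0.18 to -0.14 in the DMSO comparison. They ranged from -0.42 to -0.32 with VX745 and from -0.32 to -0.24 with MK25. With DMSO and with MK25, fewer members were called lower in each such fit than with all libraries, and the untreated count also moved. In ischemic culture 0 to 1 were lower with VX745, 3 to 4 with MK25, and 1 to 1 with MK25 than with VX745. In regular culture MK25 gave 0 to 1 higher and 0 to 1 lower, and 0 to 1 lower than VX745. The interactions gave 0 to 1 lower for VX745 and 1 to 4 for MK25.

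The replicate numbers are not known to pair libraries, and same-numbered libraries deviated together with r from -0.09 to 0.15. With a replicate block the untreated comparison kept 7 members lower and 1 higher and the MK25 interaction 3 lower, and no call of a member changed.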
